A study of Homo sapiens with 6 samples.

Results

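The thymines examined here lie in zinc finger genes, that is, in genes whose symbol begins with ZNF and a digit. Symbols with another character after ZNF were not counted. A gene was taken when a site of the deposited list of 5-formyluracil sites fell between its RefSeq start and end on hg38. The genes found were ZNF143, ZNF385A, ZNF398, ZNF444, ZNF469, ZNF606 and ZNF610, which are 7 of the 701 annotated genes of that name, with 1 site each and so 7 of the 967 sites listed. All 7 are protein-coding. They were chosen by the deposited calls, that is, by the C reads and coverage of both libraries that put a thymine on the list, so the fact that they hold a site and the values there are given as a description.

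DNA came from CAL-62, an established line of human thyroid carcinoma cells that was grown untreated. It was sequenced as input without treatment (2 libraries) or after pull-down with azi-BIAN, an azide-bearing reagent used to capture 5-formyluracil. Pulled-down DNA was made into libraries at pH 7.2 (2 libraries), where the modified base is read as T, or at pH 8.8 (2 libraries), where it can be read as C. How often it is read as C at pH 8.8 was not analysed here, so a share of C is not taken as the share of modified bases. The values used are those of both pH 8.8 libraries, and the other 4 libraries were not analysed here, so the C reads that these positions had in input or at pH 7.2 are not known here. The labels do not say whether both libraries came from separate cultures.

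5-Formyluracil arises when the methyl group of thymine is oxidised, for instance by reactive oxygen species or ionising radiation, and it can mispair during replication. Zinc finger proteins fold around zinc ions, and those of the C2H2 class, the largest group of human transcription factors, read DNA with arrays of such fingers. Many C2H2 proteins also carry a KRAB domain, which recruits the corepressor TRIM28 and silences transposable elements, or a SCAN domain, which pairs proteins with each other. Genes of the KRAB class arose by repeated duplication and stand in clusters, above all on chromosome 19.

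The 7 genes differ in what they encode. ZNF143 is a C2H2 activator that binds many promoters and the genes of small nuclear RNAs, and it has been reported at the anchors of chromatin loops. ZNF385A binds the tumour suppressor p53 and also binds RNA. ZNF398, ZNF606 and ZNF610 encode KRAB zinc finger proteins. ZNF444 encodes a SCAN zinc finger protein. ZNF469 encodes a very large zinc finger protein, and its loss causes brittle cornea syndrome, a disorder of connective tissue.

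No genome sequence around the sites was used here, but RefSeq windows of 300 bases at gene starts (250 bases before the start and 50 from it, GRCh38.p14) were listed for 4 of the 7 genes, ZNF143, ZNF398, ZNF444 and ZNF606, with 2 windows for ZNF398. These windows give the strand of those genes and the number of thymines near their starts. How many of these thymines had enough reads to be listed was not analysed here. The windows of ZNF143 and ZNF444, whose sites lay nearest to a listed start, and of ZNF606, whose gene lies in a cluster of chromosome 19, are printed 5′ to 3′ on the gene's strand. Capitals mark thymines of that strand, and each a is a thymine of the other strand.
ZNF143, chr11:9460762-9461061, plus strand: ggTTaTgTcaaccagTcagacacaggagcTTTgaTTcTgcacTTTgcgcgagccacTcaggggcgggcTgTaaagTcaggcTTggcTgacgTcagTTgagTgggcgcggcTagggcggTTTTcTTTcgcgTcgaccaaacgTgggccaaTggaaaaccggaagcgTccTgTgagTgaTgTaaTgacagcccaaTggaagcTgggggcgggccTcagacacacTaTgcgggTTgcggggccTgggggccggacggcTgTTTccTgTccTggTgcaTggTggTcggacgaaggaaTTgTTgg
ZNF444, chr19:56141037-56141336, plus strand: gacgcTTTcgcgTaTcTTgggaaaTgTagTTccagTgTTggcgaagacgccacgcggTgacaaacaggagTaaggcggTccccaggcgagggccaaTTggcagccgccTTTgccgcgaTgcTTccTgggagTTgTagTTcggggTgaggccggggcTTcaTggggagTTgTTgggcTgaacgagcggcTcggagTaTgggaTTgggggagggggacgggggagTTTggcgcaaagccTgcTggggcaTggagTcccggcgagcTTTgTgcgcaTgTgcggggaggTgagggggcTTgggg
ZNF606, chr19:58002771-58003070, minus strand: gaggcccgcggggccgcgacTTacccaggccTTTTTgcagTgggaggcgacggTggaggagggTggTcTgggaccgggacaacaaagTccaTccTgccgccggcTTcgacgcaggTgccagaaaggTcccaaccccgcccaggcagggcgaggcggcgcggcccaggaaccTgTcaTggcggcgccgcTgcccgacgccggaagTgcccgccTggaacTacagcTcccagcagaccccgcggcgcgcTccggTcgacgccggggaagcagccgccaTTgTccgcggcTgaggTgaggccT

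Counted over both strands, the ZNF143 window holds 122 thymines, the ZNF444 window 109 and the ZNF606 window 84. Together with the ZNF398 windows, 479 thymines lie at these starts, and none of them was listed as a site. The windows of ZNF606 (72.0% G and C) and ZNF398 (74.0% and 71.3%) are rich in G and C beside the median of 58.7% over 35116 windows, and that of ZNF143 (59.3%) is near it. An unlisted thymine may have had too few reads, since every listed site had at least 10 in each library. In the whole table, 5 sites fell in any such window, and at all 5 the RefSeq base was the base given in the table when positions were counted from 1.

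Among the KRAB genes, the ZNF610 site lay at position 52344885 of chromosome 19, a T of the plus strand, 14664 bases from the lower end of the gene (52330221 to 52367778). C was read in 7 of 21 reads of library 1 and in 5 of 12 reads of library 2, or 33.3% and 41.7% (mean 37.5% ± 5.89, SD, n = 2). Library 2 was the higher of the pair, by less than either library's counting interval is wide. With the reads of the pair added together the share was 36.4% (95% Wilson interval 22.2 to 53.4), the highest of the 7 sites.

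The ZNF606 site lay at position 57984868 of chromosome 19 on the minus strand, where the plus strand reads A, in a gene that runs from 57977053 to 58003346. The gene itself is on the minus strand, so the T of this site belonged to the gene's own strand, and it lay 17952 bases downstream of the listed start. C was read in 4 of 17 reads in library 1 and in 6 of 14 in library 2, that is 23.5% and 42.9% (mean 33.2% ± 13.7, SD, n = 2). Library 1 was at the lowest number of C reads that the table's limits allow for its coverage, and library 2 at the highest.

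ZNF398 lies on the plus strand of chromosome 7 (149126408 to 149183042), and its site at position 149164018 was on the minus strand, opposite to the gene's. It lay 37610 and 16565 bases downstream of the listed starts. The share of C was 33.3% (5 of 15 reads) in library 1 and 37.5% (6 of 16 reads) in library 2, a mean of 35.4% ± 2.95 (SD, n = 2). The gap of 4.17 points was less than 1 read is worth at this coverage.

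The SCAN gene ZNF444 (chromosome 19, 56132553 to 56160893, plus strand) held its site at position 56133800 on the minus strand. The site was 1247 bases inside the lower boundary and 7487 bases upstream of the start listed in the table of windows, so it was inside the gene's annotated extent but before that start. C made up 8 of 18 reads in library 1 and 5 of 20 in library 2, or 44.4% and 25.0% (mean 34.7% ± 13.7, SD, n = 2). Library 1 was at the highest number of C reads allowed for its coverage and library 2 at the lowest. None of the other sites had the lower share in library 2, and the gap here of 19.4 percentage points was the widest, next to 19.3 points at ZNF606.

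The ZNF143 site lay at position 9464722 of chromosome 11, in a gene of the plus strand (9461012 to 9528524), on that same strand and 3710 bases downstream of the start. It had 4 C reads of 15 in library 1 and 4 of 14 in library 2, or 26.7% and 28.6% (mean 27.6% ± 1.35, SD, n = 2). Library 1 was at the lowest number of C reads that the table's limits allow for its coverage. Both libraries gave the same number of C reads at almost the same coverage. Sites in PLPPR3, TMEM143 and ABCC5 had exactly these 4 counts as well, and a site in CIT had those of ZNF469, which is likeness over 2 libraries of few reads and no more.

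ZNF385A (chromosome 12, 54369136 to 54391298) held its site at position 54390546 on the minus strand, 752 bases inside the upper boundary. The long non-coding gene GPR84-AS1 (54353691 to 54467030) covers the same position, so the site cannot be given to either gene alone. Of 13 reads in library 1, 4 had C, and of 22 in library 2, 7 had C, so the shares were 30.8% and 31.8% (mean 31.3% ± 0.742, SD, n = 2). The libraries were closer here than at any other of the 7 sites.

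ZNF469, the longest of the 7 genes (339.8 kb, chromosome 16, 88100931 to 88440753), held its site at position 88377625 on the minus strand, 63128 bases from the upper boundary. C was read in 4 of 19 reads in library 1 and in 3 of 10 in library 2, or 21.1% and 30.0% (mean 25.5% ± 6.33, SD, n = 2). Both counts were the lowest that the limits of the table allow, and the share over summed reads was the lowest of the 7, at 24.1% (95% Wilson interval 12.2 to 42.1).

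**Figure D1:**
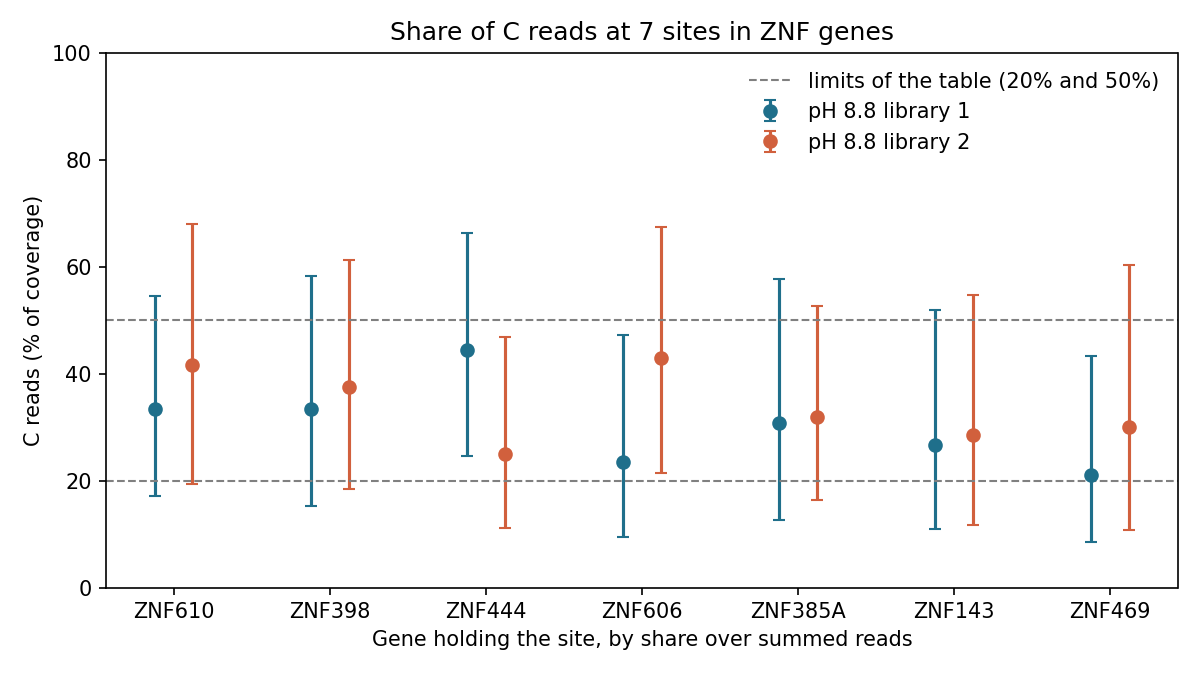
Share of C reads (percent of coverage) at the site of each of the 7 genes in pH 8.8 library 1 (blue) and library 2 (orange), with 95% Wilson intervals as bars and the limits of the table (20% and 50%) as dashed lines. The intervals of both libraries overlap at every gene, and ZNF444 is the 1 gene with a lower point in library 2.

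Ordered by the share over summed reads, the genes ran from ZNF610 (36.4%) through ZNF398 (35.5%), ZNF444 (34.2%), ZNF606 (32.3%), ZNF385A (31.4%) and ZNF143 (27.6%) to ZNF469 (24.1%). Coverage was 29 to 38 reads a site with the pair of libraries added, and ZNF610 (Wilson interval 22.2 to 53.4) overlapped even ZNF469 (12.2 to 42.1), so no neighbours in this order could be separated at this depth. The intervals cover counting error only, and they treat the reads as independent molecules, which was not checked here.

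The mean over the 7 sites was 30.4% in library 1 and 33.9% in library 2, or 32.2% ± 2.45 (SD, n = 2). Over all 967 sites it was 28.8% and 30.0%, or 29.4% ± 0.848. The medians of the share over summed reads were 32.3% for the 7 and 28.6% for all sites, and ZNF610 stood above 90.7% of all sites while ZNF469 stood above 13.3%. Summed over the 7 sites, C made up 31.9% of the reads, beside 28.9% over all sites, which include the 7. The same reads put these sites on the list, so the shares are a description and no difference or likeness is read from them. Coverage was like that of the table as a whole, with medians of 17 reads in library 1 and 14 in library 2 against 16 and 14. Of the 14 values at the 7 sites, 5 were at the lowest number of C reads allowed, beside 958 of 1934 in the whole table, and 3 were at the highest (ZNF444 in library 1, ZNF606 and ZNF610 in library 2), beside 193 of 1934.

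**Figure D2:**
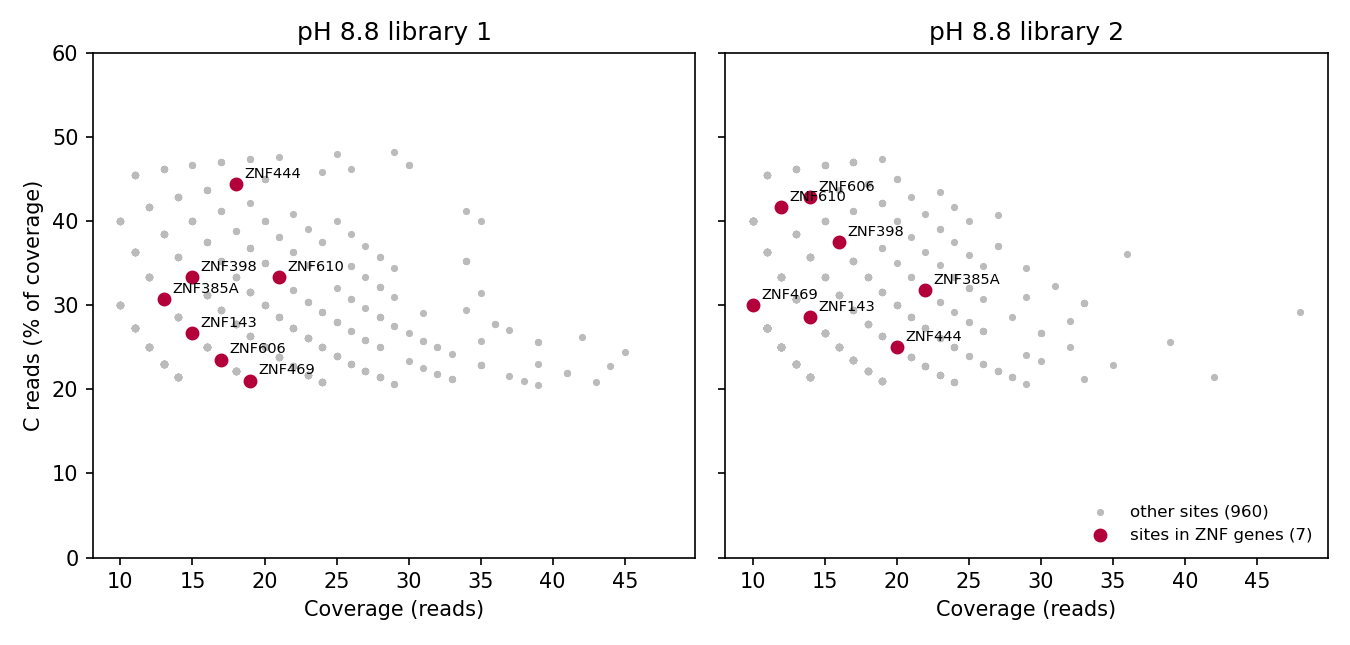
Share of C reads (percent) against coverage (reads) for all 967 sites, with 1 panel per pH 8.8 library, the 7 sites in ZNF genes in red and the other 960 in grey. The red points have 13 to 21 reads in library 1 and 10 to 22 in library 2, within the range of the grey points.

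Library 2 had the higher share at 6 of the 7 sites, beside 525 (54.3%) of all 967. The two-sided Fisher exact test between the libraries, run at all 967 sites with Benjamini-Hochberg adjustment, called 0 of 967 (0%), and 0 at an unadjusted p under 0.05. The listing keeps both shares of a site between 20% and 50% at few reads, and the lowest unadjusted exact p of any site was 0.151. The test could therefore make no call here, and nothing is read from it about the 7 sites.

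The sites lay in all parts of their genes. Measured from the lower coordinate, they stood at 4.40% of the length of ZNF444, 5.50% of ZNF143, 29.7% of ZNF606, 39.0% of ZNF610, 66.4% of ZNF398, 81.4% of ZNF469 and 96.6% of ZNF385A. On the genome, 2 were on the plus strand and 5 on the minus strand, beside 488 and 479 of all sites. Relative to the gene, the T of the site was on the gene's own strand in ZNF143 and ZNF606, 2 of the 4 genes whose strand was listed. In ZNF398 and ZNF444 it was on the opposite strand. Over all sites in genes of 1 listed strand, the T was on the gene's own strand at 239 of 458 (52.2%, exact 95% interval 47.5 to 56.8). Exons, introns and UTRs were not analysed here.

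**Figure D3:**
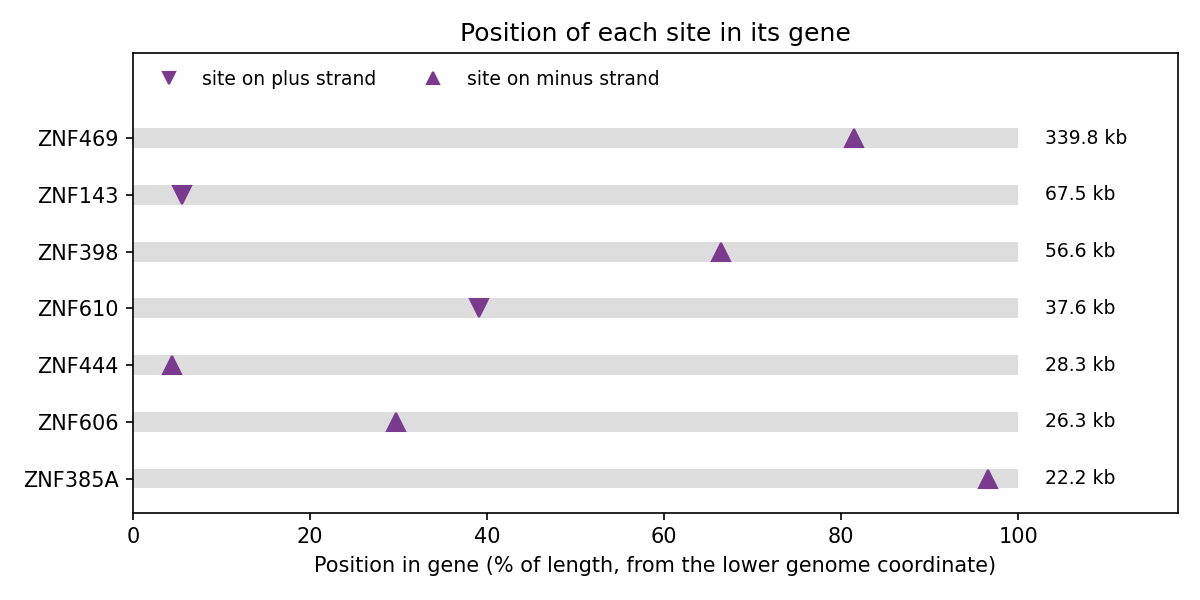
Position of the site in each of the 7 genes, as percent of the gene's length from the lower genome coordinate, with the gene's length in kb at the right; triangles pointing down are sites on the plus strand and those pointing up are sites on the minus strand. Sites stand near both ends (ZNF444, ZNF143 and ZNF385A) and in the inner part of the other genes.

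None of the 7 sites had a close neighbour. Such distances are not given here for the whole list, so this is not read as a trait of the 7. The nearest other site was 43.5 kb away for ZNF385A, in COPZ1, which encodes a coat protein of transport vesicles, with 26.7% and 36.4% C. It was 181.9 kb away for ZNF469, outside genes, and 311.4 kb away for ZNF143, in DENND5A, with 21.4% in both libraries. The sites of ZNF606, ZNF398 and ZNF444 had theirs at 513.0, 575.0 and 683.9 kb, and that of ZNF610 at 1393.9 kb, all outside genes. The boundary of a gene decides membership. Just inside it were the sites of ZNF385A (752 bases) and ZNF444 (1247 bases), and just outside was a site 524 bases from ZNF408 at position 46706436 of chromosome 11, with 25.0% and 36.4% C. The next site outside lay 4013 bases from ZNF423.

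Of the 517 protein-coding ZNF genes, 7 (1.35%) held a site, beside 2.56% of all 20037 protein-coding genes; of all 701 ZNF genes it was 0.999%, beside 1.08% of all 59679 genes. The 184 non-coding genes and pseudogenes named ZNF held 0. Because these counts are the rule that chose the genes, nothing is read from them. Protein-coding ZNF genes had a median length of 23.7 kb, near the 24.1 kb of all protein-coding genes, while the 7 had a median of 37.6 kb. Whether length bears on which genes held a site was not tested.

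Chromosome 19 carried 3 of the 7 genes and 250 of the 517. Protein-coding ZNF genes of that chromosome cover 7.11 Mb and held 3 sites, or 0.422 per Mb (exact Poisson 95% interval 0.0871 to 1.23). Its 1201 other protein-coding genes cover 24.7 Mb and held 55 sites, or 2.23 per Mb (1.68 to 2.90). On the other chromosomes, the 267 protein-coding ZNF genes held 4 sites, or 0.285 per Mb (0.0778 to 0.731), and the other protein-coding genes 0.394 per Mb (0.360 to 0.431). The sites counted in ZNF genes are those that chose the 7 genes, so these densities are a description and no difference between ZNF and other genes is read from them. The intervals cover counting error only. How many thymines of these genes had enough reads to be listed was not analysed here.

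The ZNF clusters of chromosome 19 were drawn as runs of at least 5 protein-coding ZNF genes with at most 100 kb between one and the next. This gave 13 clusters of 5 to 43 genes, 204 genes in all, over 8.82 Mb or 15.1% of the annotated length of the chromosome. Of the 84 sites of chromosome 19, 2 (2.38%) lay in a cluster, those of ZNF610 and ZNF606, and 11 of the 13 clusters held none. The density was 0.227 sites per Mb inside the clusters (exact Poisson 95% interval 0.0275 to 0.819) and 1.65 outside (1.31 to 2.05). Both sites inside are among those that chose the 7 genes, so the densities are given as a description and were not tested. With gaps of up to 250 kb, 4 sites lay inside, the others being those of ZNF444 and of the gene CYKILR, and the densities were 0.327 and 1.73 per Mb. With a minimum of 15 reads in each library, 0 sites lay in the clusters.

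**Figure D4:**
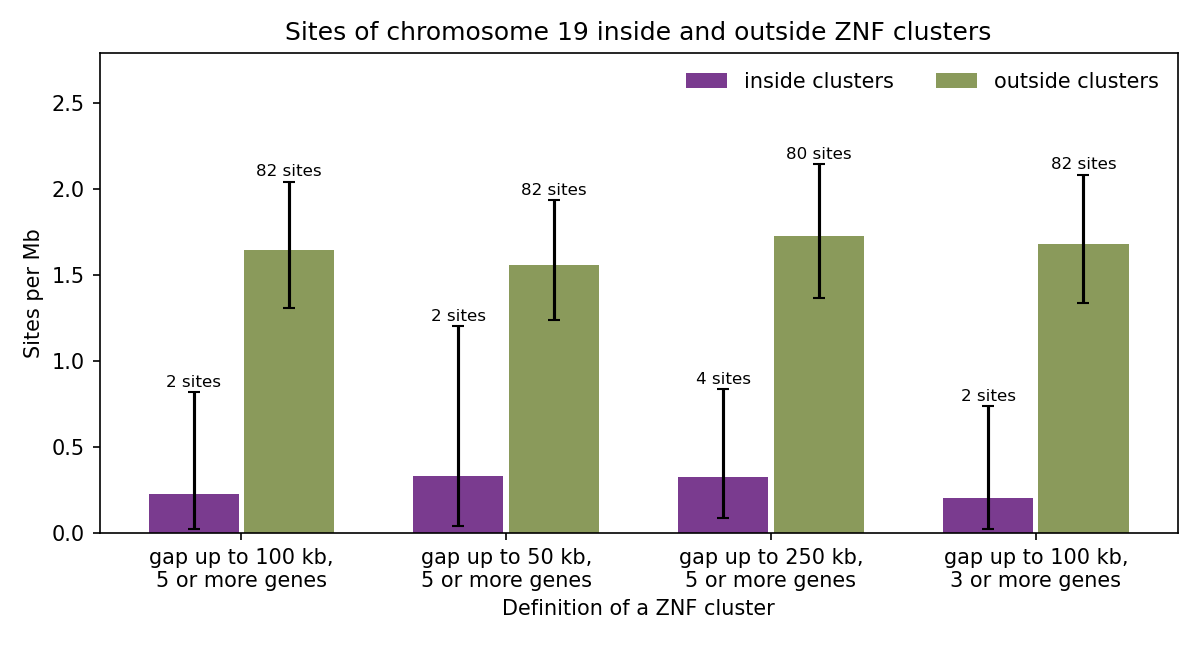
Sites per Mb of chromosome 19 inside (purple) and outside (green) ZNF clusters under 4 definitions of a cluster, with exact Poisson 95% intervals as bars and the number of sites above each. Inside the clusters 2 to 4 sites were listed and outside 80 to 82, and the sites inside include those of ZNF606 and ZNF610 under each definition.

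ZNF610 lay in the cluster that runs from ZNF577 to ZNF816 (28 genes, 51804442 to 52962881), between ZNF480 and ZNF880, with its site 540.4 kb from the lower end of a cluster 1158.4 kb long. ZNF606 lay in the largest cluster by number of genes, from ZNF264 to ZNF446 (43 genes, 57191500 to 58489533), between C19orf18 and ZSCAN1, with its site 793.4 kb from the lower end. ZNF444 lay outside the clusters, between ZNF787 and GALP and 221.9 kb from the nearest cluster, which runs from ZNF582 to ZNF835. The cluster sites had 31 and 33 reads over both libraries and the ZNF444 site 38, beside a median of 33 over the 84 sites of the chromosome.

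Genes taken as partners of zinc finger proteins, or carrying zinc fingers under other names, were counted as well. They are set beside the 2.56% of protein-coding genes that held a site. No difference from that share was tested. Of 17 genes of KRAB repression, 1 held a site: DNMT1, the maintenance DNA methyltransferase, at position 10134789 of chromosome 19 on the plus strand (33.3% and 27.3%, mean 30.3% ± 4.29, SD, n = 2). TRIM28 and the methyltransferase gene SETDB1, through which KRAB proteins act, were among those without one. Of 14 genes taken as partners of ZNF143, 1 held a site: STAG1, a subunit of cohesin, at position 136624130 of chromosome 3 (22.2% and 40.0%, mean 31.1% ± 12.6). Of 166 protein-coding genes found by the other name stems, 2 held a site. The stems SP, GLI and GATA also take in some genes that encode no such fingers.

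These 2 were ZSCAN2, a SCAN zinc finger gene (1 of 21 named ZSCAN), and ZBTB44, a BTB zinc finger gene (1 of 42 named ZBTB). The ZSCAN2 site at position 84619153 of chromosome 15 had 26.7% in library 1 and 28.6% in library 2 (mean 27.6% ± 1.35, SD, n = 2). The ZBTB44 site at position 130307378 of chromosome 11 had 36.4% and 29.4% (mean 32.9% ± 4.92). All 4 of these sites had shares within the range of the 7 ZNF sites in each library.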

How the data were processed

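The labels' titles gave 3 groups of 2 libraries (input, nonmismatch output and mismatch output). They are named here input, pull-down at pH 7.2 and pull-down at pH 8.8. The submitters' processing notes name Trim Galore, Bowtie2, MACS2 2.2.6 and the build hg38, without their roles. The calling of sites and the depth of the libraries are not given in the sources used here. Each deposited count is either the coverage of a site or its C reads in 1 pH 8.8 library, per the file headers. The authors' fraction is the ratio of these counts, as recomputed to within 1e-09. No value was under 10 reads or 3 C reads, and all shares lay between 20% and 50%. These limits were read from the values.

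Genes came from RefSeq on GRCh38.p14 (59679 genes of chromosomes 1 to 22, X and Y), and gene strands and start windows from RefSeq's table of that build, which had 4 of the 7 genes. Shares were computed per library and over summed reads, with Wilson intervals; densities have exact Poisson intervals. The Fisher exact test compared both libraries at all 967 sites. On simulated sites without the limits (15% against 75%) it recovered 136 of 200 with 0 false calls. With levels of 15% and 45% and drawn counts kept within the limits, it recovered 0 of 200. The levels differed between these runs too, so the fall cannot be laid to the limits alone. No simulated site within the limits was called, so the test is void on this table.

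The genes, lists and cluster rule were chosen with earlier results of these data known. The named genes were all 7 members, genes overlapping or next to them, nearest sites, genes with equal counts, and every gene of the other lists with a site. The sites just outside ZNF genes and CYKILR were named after their values were seen. Alternatives were a minimum of 15 reads, each library alone, summed reads, 1 site per 50 bp, genes widened by 1 kb, other names and other cluster rules. Calculations ran in Python 3.11.15 with scipy 1.17.1, pandas 2.3.3 and numpy 2.4.6, and plots in matplotlib 3.10.9.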

Additional observations from a re-analysis of the deposited data

How the results depend on the processing

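A minimum of 15 reads in each library left 2 of the 7 sites, those of ZNF398 and ZNF444. Under that minimum the mean share of the ZNF sites moved to 35.1%. The number of ZNF genes with a site moved to 2 and the number of sites in the chromosome 19 clusters to 0. Over the 265 of all sites left, the mean share was 28.4%, beside 29.4% over all 967. Gaps of up to 250 kb moved the sites in clusters to 4. The mean share was 30.4 to 33.9% without each replicate in turn, 31.9% from summed reads and 32.2% with 1 site per 50 bp. The count of genes was 8 with genes widened by 1 kb and 9 with other zinc finger names. Gaps of 50 kb or clusters of at least 3 genes left 2 sites inside. The Fisher exact test called 0 of the sites under either minimum, which says nothing about stability, since it could make no call within the limits of the table. Each library alone stayed within the Wilson interval of its site in 14 of 14 cases. That interval was built from the reads of both libraries and the table bounds every share, so this says nothing about stability either. Counts of sites could not be recomputed without a library, since the list requires both. No paired analysis was possible because the values used belong to 1 group. With 10 to 22 reads per library, no order among the 7 sites can be resolved.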
